A study of Arabidopsis thaliana with 6 samples.

Results

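The 10 genes described here encode the steps by which an Arabidopsis seedling turns stored seed oil into sugar. They were chosen by gene identifier from the 33557 genes listed in the authors' comparison of the phyA-1 mutant with wild type, and all 10 were among the 22892 that the authors tested. Those described singly are the lipase gene SDP1, the acyl-CoA synthetase genes LACS6 and LACS7, the beta-oxidation genes ACX2, MFP2 and KAT2, the glyoxylate cycle genes ICL and MLS, and the phosphoenolpyruvate carboxykinase gene PCK1.

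The groups were phyA-1 seedlings, which carry a mutant allele of the phytochrome A photoreceptor gene, and wild-type seedlings, both in the accession Landsberg erecta (Ler). Each group had 3 libraries, described in the labels as independent biological replicates. All seedlings were raised in the dark for 4 days, then kept under far-red light for 3 hours, and no seedlings kept in darkness were analysed here. A difference present before the light therefore cannot be told apart from one that arose in it. Polyadenylated RNA came from whole seedlings, so more cells of a type and more RNA per cell cannot be told apart.

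Every level below is the authors' pooled value for a genotype in FPKM, mapped fragments scaled to transcript length and to library size. It has no spread between replicates, and depth per library is unknown. Ratios are log2((FPKM + 1) ratio) of phyA-1 over wild type, so a positive value is higher in phyA-1. A gene was called when the q-value in the authors' deposited table was 0.05 or below, and rose and fell refer to called genes only. PHYA itself had 16.0 FPKM in phyA-1 and 167 FPKM in wild type, with q = 0.00045 in the authors' deposited table. Root markers were present, at 7.32 to 28.3 FPKM in phyA-1 and 5.86 to 32.1 FPKM in wild type, while the embryo factor genes LEC1 and FUS3 were listed at 0 in both genotypes.

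Arabidopsis seeds store oil as triacylglycerol in oil bodies, and a seedling in darkness lives on it until it can photosynthesise. Lipases free the fatty acids, which enter the peroxisome, are activated to acyl-CoA and are shortened by beta-oxidation to acetyl-CoA. The glyoxylate cycle joins acetyl-CoA units into organic acids, and phosphoenolpyruvate carboxykinase opens the way from these to sugar. Peroxisomes that hold the glyoxylate cycle are called glyoxysomes, and in greening cotyledons the same organelles take on the enzymes of photorespiration.

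By q in the authors' deposited table, 7 of the 10 genes rose in phyA-1, none fell and 3 were not called. Among all tested genes, 8.61% rose, 8.54% fell and 17.2% were called in either direction. Among the 14234 tested genes with a mean level of at least 5 FPKM, which all 10 genes passed, 10.5% rose, 10.6% fell and 21.1% were called. The median ratio of the 10 genes was 0.45, against 0.05 over all tested genes, and 8 of the 10 ratios were above 0, against 59% of all tested genes. At an unadjusted p under 0.05 in the authors' deposited table the counts were again 7 higher and 0 lower. The share of all tested genes at that unadjusted p was not counted, here or for the lists below. At a q-value of 0.01 in the authors' deposited table the count was 4, as LACS7, ACX2 and KAT2 no longer passed. At that q-value 1144 of the 22892 tested genes were higher in phyA-1. The sources used here do not name the tool behind the deposited test.

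The ratios differed along the pathway. The glyoxylate cycle and gluconeogenesis genes ICL, MLS and PCK1 had ratios from 0.90 to 1.21, the beta-oxidation genes ACX2, MFP2 and KAT2 from 0.44 to 0.52, and SDP1, LACS6 and LACS7, of lipolysis and fatty acid activation, from -0.0036 to 0.38. Summed over the 10 genes, the level was 1919 FPKM in phyA-1 and 1082 FPKM in wild type. ICL, MLS and PCK1 together made up 65.4% of that sum in phyA-1 and 54.1% in wild type. FPKM values depend on what else was sequenced. The short locus AT2G01021 held 50.5% of the FPKM total of phyA-1 and 21.8% of the wild-type total. These are not shares of reads. With both genotypes scaled to the same summed FPKM without this locus, the median ratio of the 10 genes was 0.42. The ratios of ICL, MLS and PCK1 were then 1.17, 0.86 and 0.95. Any other part of this locus in the levels was not tested. The differences between steps were not tested, since the deposited table gives no error for a ratio.

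**Figure D1:**
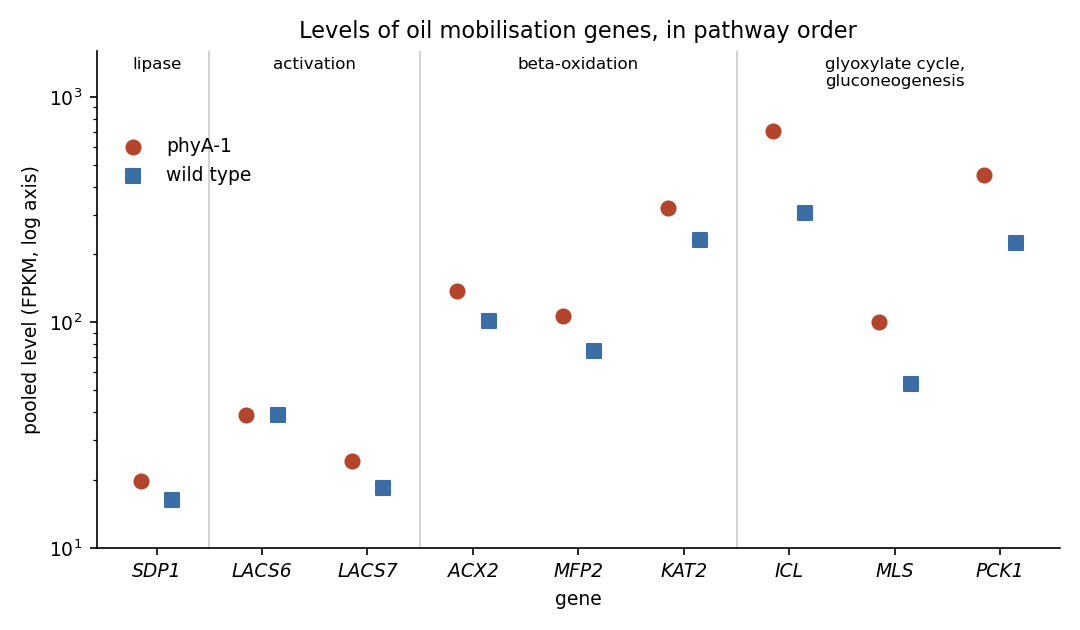
Pooled level of 9 of the 10 genes (FPKM, log axis) in phyA-1 (circles) and wild type (squares), in pathway order. The levels run from 19.8 to 707 FPKM in phyA-1 and from 16.3 to 306 FPKM in wild type, and the gap between genotypes is widest at ICL, MLS and PCK1.

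SDP1 (AT5G04040, TAIR10 chr5:1089342-1093179, plus strand) encodes the main lipase that attacks seed triacylglycerol at the oil body surface. It had 19.8 FPKM in phyA-1 and 16.3 FPKM in wild type, a ratio of 0.27, and was not called (the authors' deposited table gives q = 0.153). Its relative SDP1L (AT3G57140) was lower in level, at 3.39 FPKM in phyA-1 and 2.98 FPKM in wild type, and was not called either (the authors' deposited table gives q = 0.511). SDP1 gave 85.4% of the pair's summed level in phyA-1 and 84.5% in wild type.

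LACS6 and LACS7 encode the peroxisomal long-chain acyl-CoA synthetases, which activate the imported fatty acids and overlap in function. LACS6 (AT3G05970, chr3:1786318-1791802, minus strand) had 38.9 FPKM in phyA-1 and 39.0 FPKM in wild type, with q = 0.989 in the authors' deposited table. LACS7 (AT5G27600, chr5:9742576-9747005, plus strand) rose, with 24.2 FPKM in phyA-1 and 18.4 FPKM in wild type, a ratio of 0.38. Its q in the authors' deposited table was 0.0336, the closest to the threshold among the 7 genes that rose. LACS7 gave 38.4% of the pair's summed level in phyA-1 and 32.1% in wild type. Whether the change of LACS7 differs from that of LACS6 was not tested.

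All 3 beta-oxidation genes rose, by similar ratios. ACX2 (AT5G65110, chr5:26009635-26012519, minus strand) encodes the acyl-CoA oxidase that acts on long chains. It had 137 FPKM in phyA-1 and 101 FPKM in wild type (ratio 0.44, q = 0.0231 in the authors' deposited table). MFP2 (AT3G06860, chr3:2161869-2166349, plus strand) encodes a multifunctional protein with the hydratase and dehydrogenase activities of the cycle. It had 107 FPKM in phyA-1 and 74.3 FPKM in wild type (ratio 0.52, q = 0.00558 in the authors' deposited table). KAT2 (AT2G33150, chr2:14047478-14051140, minus strand), also called PED1, encodes the thiolase that releases acetyl-CoA. It had 320 FPKM in phyA-1 and 231 FPKM in wild type (ratio 0.47, q = 0.0247 in the authors' deposited table), the highest level of the 3.

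**Figure D2:**
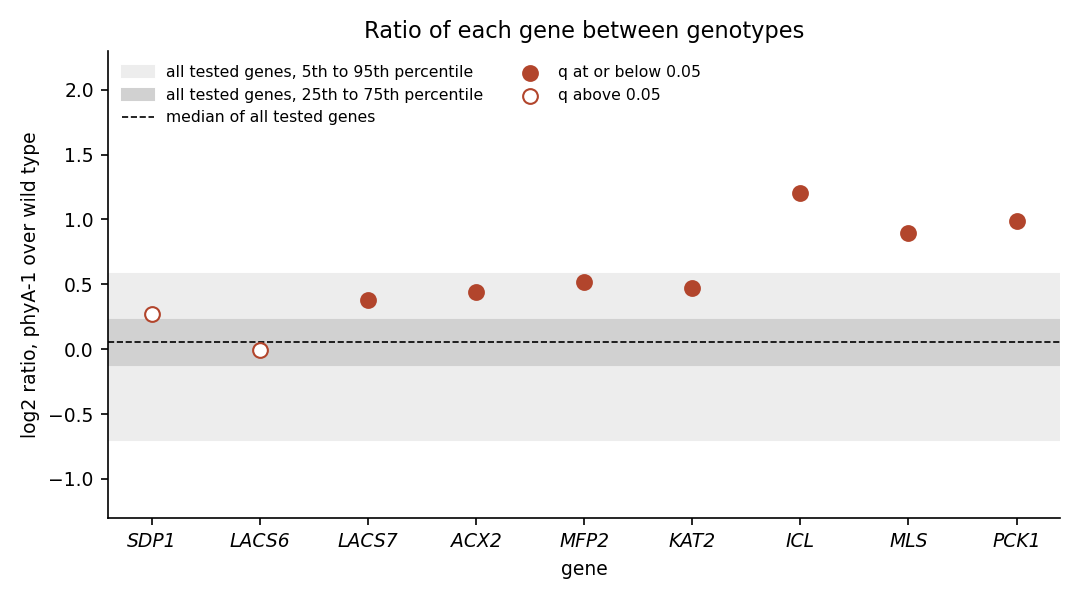
Log2 ratio of phyA-1 over wild type for 9 of the 10 genes in pathway order (filled points, q at or below 0.05 in the authors' deposited table), with bands for the percentiles of all tested genes. ICL, MLS and PCK1 lie above the 95th percentile of all tested genes, 0.58, and LACS6 lies near 0.

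ICL (AT3G21720, chr3:7652487-7656011, minus strand) encodes isocitrate lyase, which splits isocitrate and is one of the enzymes found in the glyoxylate cycle but not in the citric acid cycle. It had 707 FPKM in phyA-1 and 306 FPKM in wild type, 2.31 times the wild-type level, with a ratio of 1.21. ICL had the highest level of the 10 genes in both genotypes, and its ratio ranked 137th among the 1971 genes that rose. Among the 263 genes that rose and reached 100 FPKM in either genotype it ranked 23rd.

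MLS (AT5G03860, chr5:1032103-1034973, minus strand) encodes malate synthase, the other enzyme specific to the cycle, which joins acetyl-CoA to the glyoxylate that ICL makes. It had 100.4 FPKM in phyA-1 and 53.5 FPKM in wild type, 1.88 times the wild-type level (ratio 0.90). ICL stood above MLS in level per length by 7.04 times in phyA-1 and 5.72 times in wild type.

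PCK1 (AT4G37870, chr4:17802694-17806539, minus strand) encodes phosphoenolpyruvate carboxykinase, which commits organic acids from the cycle to sugar synthesis. It had 449 FPKM in phyA-1 and 225 FPKM in wild type, 1.99 times the wild-type level (ratio 0.99). ICL, MLS and PCK1 each had p = 5e-05 in the authors' deposited table, the smallest p that the table gives and one shared by 1668 genes, so their order by significance cannot be read from it. Their q there was 0.00045.

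The 250 bases before the annotated start of ICL, MLS and PCK1 are shown because these genes had the largest ratios of the 10. They were read 5′ to 3′ on the coding strand from the RefSeq annotation and genome of TAIR10.1, at chr3:7656054-7656303 for ICL, chr5:1034974-1035223 for MLS and chr4:17806706-17806955 for PCK1, all on the minus strand. Capitals mark matches on either strand to ACGTG (the core of the abscisic acid response element), GATAAG (the I-box of light-regulated promoters) or CCAAT.
ICL: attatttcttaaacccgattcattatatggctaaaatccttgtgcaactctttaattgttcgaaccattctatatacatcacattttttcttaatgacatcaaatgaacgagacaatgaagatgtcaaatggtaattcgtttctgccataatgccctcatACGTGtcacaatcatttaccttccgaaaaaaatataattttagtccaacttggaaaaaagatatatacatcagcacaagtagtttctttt
MLS: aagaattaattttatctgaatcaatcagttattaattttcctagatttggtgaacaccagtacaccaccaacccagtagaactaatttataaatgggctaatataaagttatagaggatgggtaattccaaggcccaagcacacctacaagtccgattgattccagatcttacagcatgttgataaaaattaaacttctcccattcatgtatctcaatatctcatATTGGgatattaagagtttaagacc
PCK1: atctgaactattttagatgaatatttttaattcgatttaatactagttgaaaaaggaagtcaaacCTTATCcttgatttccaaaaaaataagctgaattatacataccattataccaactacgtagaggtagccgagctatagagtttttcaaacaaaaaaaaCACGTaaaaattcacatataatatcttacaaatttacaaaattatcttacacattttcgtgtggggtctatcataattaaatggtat

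ACGTG lies 90 bases before the RefSeq start of ICL and 87 bases before that of PCK1. It was not found in the windows of the other 8 genes. For ICL and PCK1 the RefSeq start lies upstream of the gene coordinates given above, so these distances depend on the annotation used. Of 27443 nuclear protein-coding genes in the annotation, 22.9% hold ACGTG in the same window, against 2 of the 10 genes. GATAAG was found at PCK1 and MFP2 (12.3% of all windows) and CCAAT at MLS, SDP1 and MFP2 (46.0% of all windows). TATCCA, an element linked to sugar starvation in cereals, was found at LACS7 and MFP2 (13.6% of all windows). The G-box CACGTG (6.49% of all windows), which contains ACGTG, and the seed element CATGCA (8.43% of all windows) were found at none of the 10 genes. The 6 motifs were chosen with the values known, and a match of letters does not show a bound site.

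Among the other acyl-CoA oxidase, multifunctional protein, thiolase and phosphoenolpyruvate carboxykinase genes, PCK2 rose, KAT5 fell and the rest were not called. ACX2 was the only called gene of the 6 acyl-CoA oxidase genes ACX1 to ACX6, and gave 30.8% of their summed level in phyA-1 and 26.2% in wild type. ACX4, which acts on short chains, was higher in level than ACX2, with 152 FPKM in phyA-1 and 128 FPKM in wild type, and was not called (the authors' deposited table gives q = 0.26). AIM1, the other multifunctional protein gene, had 74.3 FPKM in phyA-1 and 69.9 FPKM in wild type and was not called (the authors' deposited table gives q = 0.739). MFP2 gave 59.0% of the pair's summed level in phyA-1 and 51.5% in wild type. AIM1 shares its deposited locus with another gene, so its level and this split are less certain. Among the thiolase genes, KAT2 rose and KAT5 (AT5G48880) fell, at 8.20 FPKM in phyA-1 and 18.9 FPKM in wild type (ratio -1.11). KAT2 supplied 95.5% of the summed thiolase level in phyA-1 and 89.5% in wild type. PCK2 (AT5G65690), the second phosphoenolpyruvate carboxykinase gene, rose too (ratio 0.46) but had 3.80 FPKM in phyA-1 and 2.48 FPKM in wild type, so PCK1 supplied 99.2% and 98.9% of the pair's level in these genotypes. Differences in ratio between family members were not tested.

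**Figure D3:**
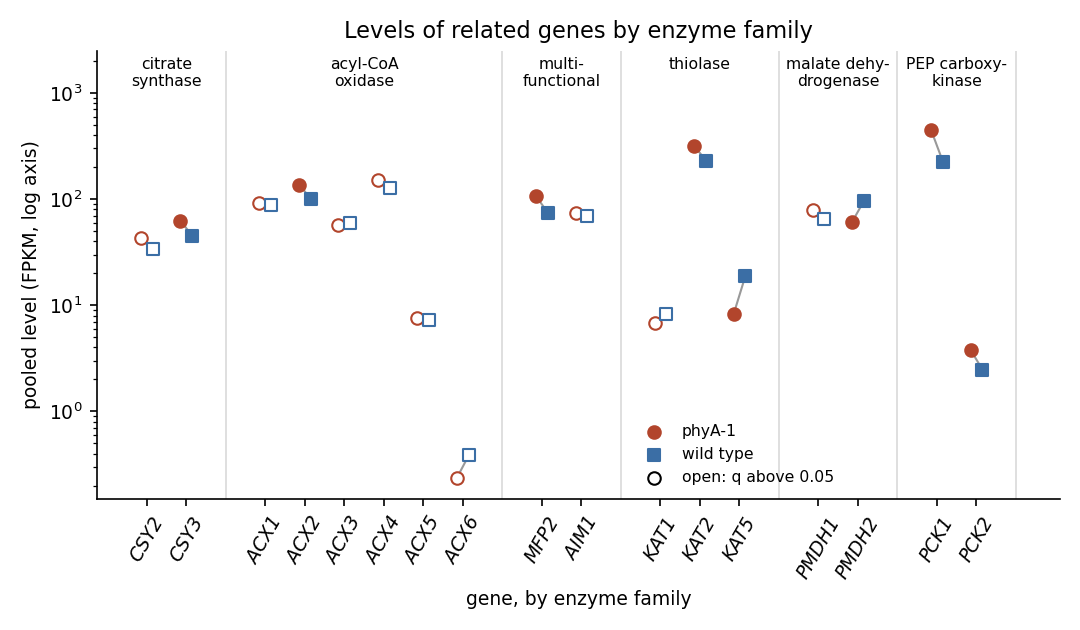
Pooled levels (FPKM, log axis) in phyA-1 (circles) and wild type (squares) of genes in 6 enzyme families, filled where q was at or below 0.05 in the authors' deposited table. KAT2 and PCK1 dominate their families in level, and KAT5 and PMDH2 are lower in phyA-1 while KAT2 is higher.

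Of 18 further genes of peroxisomal beta-oxidation and its carriers, KAT5 was the 1 gene called, none rose and 17 were not called, so 5.56% were called against 17.2% of all tested genes. Their median ratio was 0.07, close to the 0.05 of all tested genes. At an unadjusted p under 0.05 in the authors' deposited table the counts were again 0 higher and 1 lower. KAT5 shares its deposited locus with a neighbouring gene, which makes its level less certain. PNC1 and PNC2, which carry ATP into the peroxisome for acyl-CoA synthesis, had 15.2 and 31.7 FPKM in phyA-1 and 12.3 and 26.4 FPKM in wild type, and were not called.

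A further list, of the glyoxylate cycle and gluconeogenesis, had 16 tested genes and also holds BOU, a carrier gene known from photorespiration. In this list 3 genes rose, 3 fell and 10 were not called, with a median ratio of 0.12. Of all tested genes, 8.61% rose and 8.54% fell. At a q-value of 0.01 the list's count of higher genes was 1, while 1144 of the 22892 tested genes were higher. CSY3 (AT2G42790), a peroxisomal citrate synthase gene whose locus is shared, had 62.7 FPKM in phyA-1 and 44.9 FPKM in wild type (ratio 0.47). A cytosolic malate dehydrogenase gene, c-NAD-MDH2 (AT5G43330), had 43.0 FPKM in phyA-1 and 29.3 FPKM in wild type (ratio 0.54), and PCK2 was the third that rose. The other listed cytosolic gene, c-NAD-MDH1 (AT1G04410), was far higher in level, at 1214 FPKM in phyA-1 and 1044 FPKM in wild type. It was not called (the authors' deposited table gives q = 0.509). CSY2 had 43.3 FPKM in phyA-1 and 33.7 FPKM in wild type, with q = 0.0543 in the authors' deposited table.

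Among the 3 that fell, BOU (AT5G46800), a mitochondrial carrier gene known for a part in photorespiration, had 12.9 FPKM in phyA-1 and 40.0 FPKM in wild type (ratio -1.56). PMDH2 (AT5G09660), a peroxisomal malate dehydrogenase gene, had 60.9 FPKM in phyA-1 and 95.9 FPKM in wild type (ratio -0.65). The cytosolic fructose bisphosphatase gene FBP (AT1G43670), whose enzyme also acts in sucrose synthesis from photosynthate, had 42.5 FPKM in phyA-1 and 64.2 FPKM in wild type (ratio -0.59). The other peroxisomal malate dehydrogenase gene, PMDH1, had 78.6 FPKM in phyA-1 and 64.4 FPKM in wild type and was not called (the authors' deposited table gives q = 0.157). PMDH1 thus gave 56.4% of the pair's level in phyA-1 and 40.2% in wild type.

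Most genes for enzymes of the leaf peroxisome fell. Of 9 genes, 7 fell and none rose, against 8.54% of all tested genes that fell and 8.61% that rose. The median ratio of the 9 was -0.95. HPR1 (AT1G68010), hydroxypyruvate reductase, had 40.3 FPKM in phyA-1 and 171 FPKM in wild type (ratio -2.06). GGT1 (AT1G23310), glutamate:glyoxylate aminotransferase, had 76.7 FPKM in phyA-1 and 235 FPKM in wild type (ratio -1.60). The glycolate oxidase genes GOX2 (AT3G14415) and GOX1 (AT3G14420) fell with ratios of -1.38 and -1.28. They are adjacent and similar in sequence, so the split of reads between them is uncertain. HPR1 had the lowest ratio of the 9 genes and ICL the highest of the 10 members, so this pair joins the extremes of both lists. ICL stood above HPR1 in level by 17.5 times in phyA-1 and 1.78 times in wild type. MLS stood at 2.49 times the HPR1 level in phyA-1 and at 0.312 times in wild type. The summed level of ICL and MLS was 807 FPKM in phyA-1 and 359 FPKM in wild type, while that of 6 photorespiratory enzyme genes was 434 FPKM in phyA-1 and 1127 FPKM in wild type. CAT3, a catalase gene with 3363 FPKM in phyA-1 and 2552 FPKM in wild type, was not called (the authors' deposited table gives q = 0.352).

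**Figure D4:**
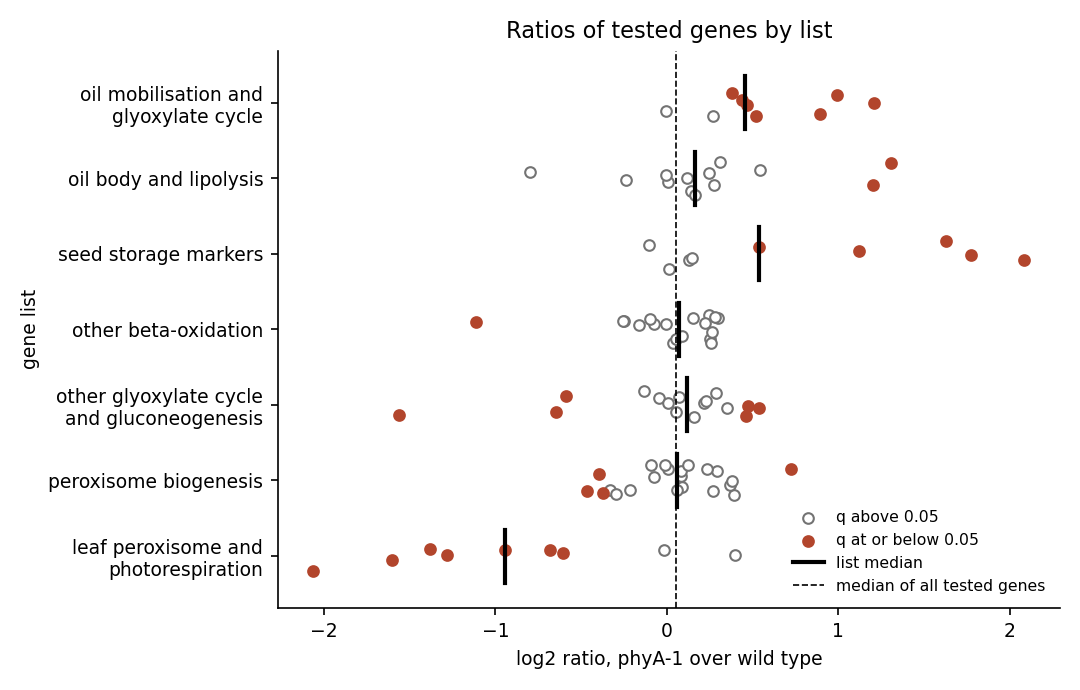
Log2 ratio of phyA-1 over wild type for tested genes of 7 lists, 1 point per gene (9 of the 10 genes and 22 of the 23 peroxisome biogenesis genes), filled where q was at or below 0.05 in the authors' deposited table, with list medians as bars. The medians run from -0.95 for leaf peroxisome genes to 0.53 for seed storage markers, with 0.45 for the 10 genes and 0.05 over all tested genes.

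Of 23 tested genes that build peroxisomes, 1 rose, 4 fell and 18 were not called, with a median ratio of 0.06. The 21.7% called is near the 17.2% of all tested genes. At a q-value of 0.01 the list had 1 lower gene, while 1492 of the 22892 tested genes were lower. At an unadjusted p under 0.05 in the authors' deposited table the counts were 4 higher and 6 lower. The 17.2% is a share at the q-value of 0.05 and is no background for these counts. PEX3-1 (AT3G18160; ratio -0.47), the peroxisomal protease gene LON2 (AT5G47040; -0.40) and PEX14 (AT5G62810; -0.37, locus shared), a docking factor of protein import, were among those that fell. PEX19-2 (AT5G17550), a receptor for peroxisomal membrane proteins, had 28.5 FPKM in phyA-1 and 16.9 FPKM in wild type (ratio 0.72). PEX5 and PEX7, the receptors that import enzymes such as those above, had 22.99 and 26.1 FPKM in phyA-1 and 24.3 and 21.2 FPKM in wild type, and neither was called.

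At the oil body, 2 of 13 tested genes rose, none fell and 11 were not called, with a median ratio of 0.16. The 15.4% called is near the share of all tested genes, 17.2%. OLEO3 (AT5G51210), an oleosin that coats oil bodies, had 85.3 FPKM in phyA-1 and 33.9 FPKM in wild type (ratio 1.30). The other oleosin genes OLEO1 (locus shared), OLEO2 and OLEO4 had at most 2.96 FPKM in either genotype and were not called. OLEO2 had q = 0.0512 in the authors' deposited table. AT2G47780, annotated as a rubber elongation factor protein, had 285 FPKM in phyA-1 and 123 FPKM in wild type (ratio 1.20), and its locus is shared. Another lipid droplet protein gene, AT1G67360, also at a shared locus, went the other way. It had 40.1 FPKM in phyA-1 and 70.5 FPKM in wild type (ratio -0.80). It was not called (the authors' deposited table gives q = 0.0711). At an unadjusted p under 0.05 in the authors' deposited table the counts in this list were 3 higher and 1 lower.

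Markers of seed maturation included several that rose. Of 9 seed storage and late embryogenesis genes, 5 rose, none fell and 4 were not called, with a median ratio of 0.53, against 8.61% of all tested genes that rose. With a mean of at least 5 FPKM required the count was 2, since SESA1, SESA2 and EM1 lie below that level. The uncalled CRU2 and SESA4 lie below it too, which leaves CRA1, CRU3, SESA3 and EM6. Of all tested genes at that level, 10.5% rose. At an unadjusted p under 0.05 in the authors' deposited table the counts were again 5 higher and 0 lower. The cruciferin genes CRA1 (AT5G44120) and CRU3 (AT4G28520) had 10.5 and 18.01 FPKM in phyA-1 and 1.71 and 5.15 FPKM in wild type. The albumin genes SESA2 (AT4G27150) and SESA1 (AT4G27140) had 5.05 and 3.66 FPKM in phyA-1 and 0.769 and 1.14 FPKM in wild type, and EM1 (AT3G51810) rose with a ratio of 0.53. The summed level of the 9 markers was 55.8 FPKM in phyA-1 and 25.5 FPKM in wild type, and no marker was listed at 0 in both genotypes. Their part in the ratios of the 10 genes was not tested.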

How the data were processed

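RNA-seq of 3 phyA-1 and 3 wild-type libraries was read from 1 table of the whole series, without a header, in which the authors pooled the libraries of each genotype. Reads were aligned with Bowtie to TAIR10, per the submitters' processing notes; no source used here names the quantifier or the test. The authors deposited, per gene, an FPKM value for each genotype, a log2 ratio with wild type on top, a score, and a p-value with its q-value. Column meanings were read from the layout, which resembles Cuffdiff output, and tested against the values.

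Ratios were recomputed as phyA-1 over wild type with a pseudocount of 1 FPKM. Calls used the deposited q-value at 0.05, which equals the authors' yes or no column. No test across replicates was possible here. Of the 33557 genes, 10630 were left untested by the authors, 33 are marked LOWDATA and 2 HIDATA.

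The members, the 9 other gene lists and the motifs were chosen with earlier results of these data known. Genes named by rule are all 10 members, PHYA and, per list, up to 4 called genes by size of ratio (for a list with no call, the gene with the highest mean level). Outside that rule, CSY3, PCK2, PEX14, EM1 and every gene named as not called or not tested were added after their values were seen. One member and a gene of the peroxisome biogenesis list enter the counts only and are not reported singly here. Symbols, strands and promoter windows of 250 bases came from RefSeq TAIR10.1, to which 32810 identifiers matched; member coordinates are those of the table, 1-based. Of 28626 nuclear genes with a locus of their own, 99.99651% overlap the same gene in TAIR10.1, but 52.0% have an identical start or end. Calculations used Python 3.11.15, pandas 2.3.3 and NumPy 2.4.6, and the ratio and adjustment steps were tested on simulated data. Alternatives were other pseudocounts, q thresholds, an adjustment over all tested genes, filters on level and 2 scalings.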

Additional observations from a re-analysis of the deposited data

How the results depend on the processing

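Lowering the threshold on the deposited q-value to 0.01 left 4 of the 10 genes higher in phyA-1 (MFP2, ICL, MLS and PCK1) and 0 lower. At that threshold 1144 of the 22892 tested genes were higher and 1492 lower. A Benjamini-Hochberg adjustment of the deposited p-values over all tested genes kept 7 members higher, LACS7 with an adjusted p of 0.0482, and filters at a mean of 1 or 5 FPKM also left 7. The median ratio of the 10 genes ran from 0.38 to 0.46 over 2 other pseudocounts and 2 scalings, whose shifts between genotypes were 0.08 and 0.04. The scaling with the shift of 0.04 used the summed FPKM without AT2G01021. Each scaling shifts all genes alike, by less than the smallest ratio of a called member, and the deposited calls could not be recomputed under them. Among single lists, the lower count for peroxisome biogenesis went to 1 at a q-value of 0.01 and to 2 with the Benjamini-Hochberg adjustment. The count of higher seed storage markers went to 2 at a mean of at least 5 FPKM, a filter that also removed the uncalled CRU2 and SESA4. At a q-value of 0.01, the higher counts for the other glyoxylate and gluconeogenesis genes, the seed phase regulators and the root markers went to 1, 1 and 0. No paired analysis was possible because the table holds pooled values without replicate numbers, and for the same reason no replicate could be left out. Depth per library is unknown, so precision is known only through the deposited p-values.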

Other observations

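Among 9 genes that make oil, DGAT1 (AT2G19450), an acyltransferase of the last step of triacylglycerol synthesis, was the 1 gene that rose, with 16.8 FPKM in phyA-1 and 11.8 FPKM in wild type (ratio 0.48, q = 0.0061 in the authors' deposited table), none fell and 8 were not called. The 11.1% called is near the 17.2% of all tested genes. Of 5 tested regulators of the seed phase, 2 rose and 3 were not called, against 8.61% of all tested genes that rose. The 3 not called had ratios below 0, so the median ratio of this list was -0.17. At a q-value of 0.01 the list's count of higher genes was 1, while 1144 of the 22892 tested genes were higher. ABI5 (AT2G36270), a bZIP factor of the abscisic acid response, had 10.6 FPKM in phyA-1 and 3.95 FPKM in wild type (ratio 1.23). The bZIP1 gene (AT5G49450), known for a part in the response to low energy, had 106 FPKM in phyA-1 and 78.2 FPKM in wild type (ratio 0.43). ABI4, a factor that represses oil breakdown, had 0.249 FPKM in phyA-1 and 0.406 FPKM in wild type and was not called. Of 5 root markers, EXPA18 (AT1G62980) rose (28.3 FPKM in phyA-1, 20.9 FPKM in wild type) and 4 were not called. The 20% called is near the 17.2% of all tested genes.

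The 20 genes directly beside the 10 members on the chromosomes included 14 that the authors tested. Of these 4 rose, 0 fell and 10 were not called, against 8.61% of all tested genes that rose. One of the 4, AT3G05975 beside LACS6, had 0.177 FPKM in phyA-1 and was listed at 0 in wild type. AT3G21710, next to ICL, had 102 FPKM in phyA-1 and 74.4 FPKM in wild type (ratio 0.45). Both neighbours of MFP2 rose, AT3G06850 with a ratio of 0.38 and AT3G06868 with a ratio of 0.68. These neighbours were looked at after the values of the members were known.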
